A study of Mus musculus with 9 samples.

Results

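Glycolysis turns glucose into pyruvate and lactate, and the genes described here are part of its path, from the uptake of glucose to pyruvate. They come from a list chosen by name and not by a threshold, of 9 UniGene clusters and the array maker's control sets for Gapdh. No array value enters that choice, but it was made with earlier results of these arrays known, so the tests below describe the genes and are not independent evidence that the pathway changed. Of the 9 clusters, 5 were among the 17810 clusters of the table: Mm.21002 (Slc2a1), Mm.255848 (Hk2), Mm.275831 (Aldoa), Mm.4222 (Tpi1) and Mm.326167 (Pkm). Gapdh was read by 3 control sets, which lie toward the 3' end, in the middle and toward the 5' end of its transcript. Gpi1, Pgk1, Eno1 and Ldha, listed under the other 4 numbers, were not analysed here. The table itself names only Gapdh, so the other symbols rest on the list of cluster numbers and were not tested against the arrays.

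The 9 arrays are of bone marrow-derived macrophages of C57BL/6 mice, cultured for 7 days, with 30 ng/ml of the growth factor M-CSF in every group and 3 arrays per group. Over the last 3 days, starting on day 4, cells of the group dexa+IL4 were given interleukin 4 (IL-4, 10 ng/ml) and the glucocorticoid dexamethasone (5e-07 M). Cells of the group cmB16F1 were given medium taken from cultures of B16F1, a melanoma line of the mouse. Cells of the group cmB16F1+dexa+IL4, called the combination, were given all of these. No arrays of M-CSF alone were used here, so each value is set only against another stimulated group. The labels do not say whether the arrays of a group come from separate mice or cultures, so p-values measure the spread between these arrays, which may be technical.

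Glucose enters the cell through carriers such as GLUT1, the product of Slc2a1, and hexokinase, of which Hk2 encodes an inducible form, traps it as glucose 6-phosphate. Aldolase (Aldoa) splits the phosphorylated sugar, triosephosphate isomerase (Tpi1) interconverts the products, Gapdh carries out the oxidative step, and pyruvate kinase (Pkm) makes pyruvate and ATP. In macrophages this path is known to be raised by inflammatory stimuli and by hypoxia, where the hypoxia-inducible factor HIF-1 binds many of its genes.

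All 5 clusters and all 3 Gapdh sets had their highest group mean in cmB16F1. The genes parted in the combination. Tpi1 and Gapdh lay between the single groups there. Slc2a1 and Hk2 had their lowest arrays there, below every array of the other groups, as did 4.77% of all features. Neither passed the test against dexa+IL4 given below. Pkm and Aldoa also had their lowest mean there, but their arrays overlapped those of dexa+IL4. The pairs were not tested against each other. The plot of values by array shows both patterns.

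**Figure D1:**
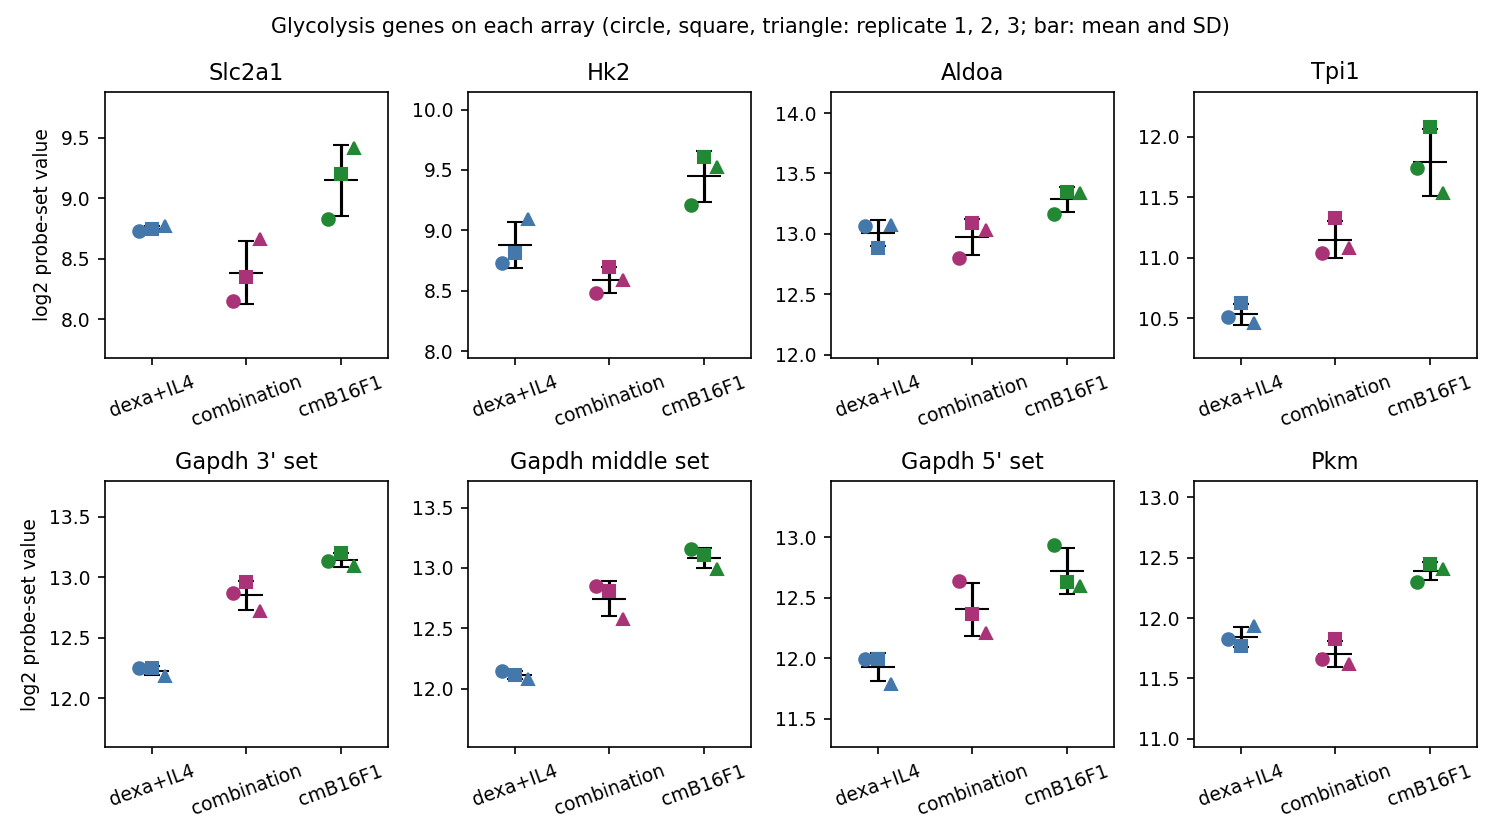
Log2 probe-set values of 5 glycolysis clusters and 3 Gapdh control sets on each of 9 arrays, by group, with the mean and SD of 3 arrays; every panel spans the same height on the log2 scale, with its own start. Tpi1 climbs from 10.53 in dexa+IL4 through 11.15 in the combination to 11.79 in cmB16F1, while Slc2a1 and Hk2 are lowest in the combination, at 8.38 and 8.59.

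The windows upstream of the start sites of these genes were read for the core of the hypoxia response element, ACGTG or GCGTG on either strand. The windows shown were chosen by sequence and pathway order, and no array value entered the choice. Pkm came last in that order, so its match is not shown. Each line holds the 250 bases before a RefSeq start site, 5' to 3' on the gene's strand in build GRCm38.p6, and capitals mark a match.
Slc2a1, chr4:119108495-119108744, plus strand: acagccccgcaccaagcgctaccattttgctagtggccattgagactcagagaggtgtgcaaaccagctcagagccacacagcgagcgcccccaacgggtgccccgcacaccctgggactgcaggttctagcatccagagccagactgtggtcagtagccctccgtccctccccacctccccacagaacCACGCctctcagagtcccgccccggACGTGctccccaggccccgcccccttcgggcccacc
Hk2, chr6:82774455-82774704, minus strand: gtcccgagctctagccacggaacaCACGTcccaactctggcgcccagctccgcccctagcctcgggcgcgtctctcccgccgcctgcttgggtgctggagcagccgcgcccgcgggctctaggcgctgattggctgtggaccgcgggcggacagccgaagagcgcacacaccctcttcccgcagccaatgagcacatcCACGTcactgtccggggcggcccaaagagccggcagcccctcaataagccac
Aldoa, chr7:126799255-126799504, minus strand: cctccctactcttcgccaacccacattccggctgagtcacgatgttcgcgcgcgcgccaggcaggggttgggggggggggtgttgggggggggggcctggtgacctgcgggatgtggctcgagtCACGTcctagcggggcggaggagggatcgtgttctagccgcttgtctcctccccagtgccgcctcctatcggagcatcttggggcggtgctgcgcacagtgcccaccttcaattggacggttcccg
Gapdh, chr6:125165774-125166023, minus strand: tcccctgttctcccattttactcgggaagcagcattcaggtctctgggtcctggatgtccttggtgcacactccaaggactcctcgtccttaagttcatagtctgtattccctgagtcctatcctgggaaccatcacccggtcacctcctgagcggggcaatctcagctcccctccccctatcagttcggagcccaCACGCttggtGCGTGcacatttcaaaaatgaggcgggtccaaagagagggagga
RefSeq lists 3 start sites for Aldoa, and the first window with a match is shown. All 6 genes matched the RefSeq table, with 9 windows between them. Slc2a1 and Hk2 held 2 matches each, at 61 and 36 bases before the start site in Slc2a1 and at 226 and 52 in Hk2. Gapdh also held 2, at 54 and 44 bases. Aldoa held 1 match, shared by its overlapping windows, Pkm held 1 in 1 of its windows, and Tpi1 held none. Of 32851 such windows in the table, 38.6% held at least 1 match. Counted by gene, 5 of these 6 held a match, against 41.5% of 27025 gene symbols, so the motif is common. These shares were not tested against each other. None of the matches was part of the palindrome CACGTG, an E-box. Matches are a description of the letters in these windows, and the arrays did not measure binding.

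At the entry of the pathway, the values of the glucose carrier Slc2a1 were 8.73, 8.74 and 8.77 for dexa+IL4, 8.15, 8.34 and 8.66 for the combination, and 8.83, 9.20 and 9.41 for cmB16F1. No 2 groups overlapped, and the combination was lowest and the most separated from cmB16F1. The dexa+IL4 arrays lay within 0.038 of each other, while those of the combination spanned 0.51 and those of cmB16F1 0.58.

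For Hk2, which commits glucose to the cell, the dexa+IL4 arrays read 8.73, 8.81 and 9.09. Those of the combination read 8.48, 8.70 and 8.59, and those of cmB16F1 9.21, 9.61 and 9.53. Here too no 2 groups overlapped, with a gap of only 0.027 between the combination and dexa+IL4 and of 0.51 between the combination and cmB16F1. Both genes were of moderate level: between 8.66% and 21.2% of all features had a higher group mean than these, depending on the gene and group.

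In the middle of the pathway, Aldoa was at 13.07, 12.89 and 13.07 for dexa+IL4. It was at 12.80, 13.09 and 13.03 for the combination and at 13.17, 13.34 and 13.34 for cmB16F1. The arrays of dexa+IL4 and the combination overlapped. The lowest cmB16F1 array lay above the highest of each by less than 0.1, while the cmB16F1 mean was higher by 0.28 and 0.31. Only 23 to 43 of 17829 features had a higher mean than Aldoa, depending on the group.

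Tpi1 was at 10.51, 10.63 and 10.46 for dexa+IL4, at 11.04, 11.33 and 11.08 for the combination and at 11.74, 12.09 and 11.54 for cmB16F1. The groups stood apart in that order, by gaps of 0.42 and 0.21. Its group means were 10.53 ± 0.085, 11.15 ± 0.15 and 11.79 ± 0.28 (SD, n = 3).

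The 3' set of Gapdh was at 12.25, 12.25 and 12.19 for dexa+IL4, at 12.87, 12.96 and 12.72 for the combination and at 13.13, 13.20 and 13.09 for cmB16F1. The middle set was at 12.14, 12.12 and 12.08, then 12.85, 12.81 and 12.58, then 13.15, 13.11 and 12.99 in the same order of groups. In both sets the groups did not overlap and had the order of Tpi1. The 5' set was at 11.99, 11.99 and 11.79, then 12.64, 12.37 and 12.21, then 12.94, 12.63 and 12.60, and its combination and cmB16F1 arrays overlapped.

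At the pyruvate step, Pkm was at 11.83, 11.77 and 11.93 for dexa+IL4, at 11.66, 11.82 and 11.62 for the combination and at 12.30, 12.45 and 12.41 for cmB16F1. The 6 arrays that had received dexamethasone and IL-4 overlapped, and all 3 cmB16F1 arrays lay above them by at least 0.37. The Pkm cluster does not separate the M1 and M2 splice forms of pyruvate kinase, so the values are of the gene as the cluster reads it.

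The first comparison set the combination against dexa+IL4, and so asked what conditioned medium changed beside dexamethasone and IL-4. Tpi1 rose 1.53-fold and Gapdh 1.54-fold at its 3' set, while the other 4 clusters did not pass the test. Of the 5 clusters, 1 was called, higher in the combination, against 17.9% of all features called in either direction and 8.88% called higher. All 3 Gapdh sets were called higher. The change of Tpi1 was 0.62 on the log2 scale with an SE of 0.129 (limma, Benjamini-Hochberg adjusted p = 0.008708), and it was larger than for all but 3.33% of features. Those of the 3', middle and 5' Gapdh sets were 0.62, 0.63 and 0.48 (limma adjusted p = 1.842e-04, 3.965e-04 and 0.02188).

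The entry genes had differences of the opposite sign in this comparison. The Slc2a1 difference was -0.36 (95% confidence interval -0.70 to -0.027) and that of Hk2 was -0.29 (-0.55 to -0.018). Neither passed (limma adjusted p = 0.1304 and 0.1349). The intervals here and below are for single features and are not adjusted over all features, so they need not match the calls. Their arrays did not overlap between the groups, as was true of 18.4% of all features in that direction and, in the direction of Tpi1, of 17.8%. Pkm differed by -0.14, with an interval from -0.30 to 0.019, and Aldoa by -0.033, from -0.22 to 0.16 (limma adjusted p = 0.2194 and 0.8471). The median difference of the 5 clusters was -0.14, against -0.0026 over all features, and the median size was 0.29 against 0.065. Most features are dimmer than these genes, and brighter features differed more often. At the level of Slc2a1 and Hk2, a mean of 7 to 9, 23.4% were called in either direction, with a median size of 0.0932. At that of Tpi1, Pkm and Gapdh, 11 to 13, 53.3% were called, with a median size of 0.251, and at that of Aldoa, 13 or more, 41.9%.

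On each array the value of Tpi1 was also set against that of each other cluster. Tpi1 was taken as the reference after its rise had been seen, so these values are a description with no test. From dexa+IL4 to the combination the change of Tpi1 exceeded that of Slc2a1 by 0.98, of Hk2 by 0.90, of Pkm by 0.76 and of Aldoa by 0.65. In each of these 4 pairs the within-array difference did not overlap between the groups. The array values given above already fix this, since the gap of 0.42 in Tpi1 was wider than any overlap of the other clusters. The pairs share Tpi1, and such differences were not counted over all features.

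The call of the 5' Gapdh set did not survive the removal of certain single arrays. Its change was 0.51 without dexa+IL4 replicate 1, 0.41 without dexa+IL4 replicate 3, 0.36 without combination replicate 1 and 0.50 without combination replicate 2 (limma adjusted p = 0.05131, 0.08798, 0.06378 and 0.05588). Without combination replicate 3, whose Slc2a1 value was the highest of its group, Slc2a1 differed by -0.50 and passed the test (limma adjusted p = 0.03816), so that 2 clusters were called. The hybridization controls, bacterial and phage transcripts added to each sample, averaged 10.39 ± 0.14 for the combination, 10.14 ± 0.099 for dexa+IL4 and 10.18 ± 0.14 for cmB16F1 (SD, n = 3). Scaling each array to them moved the median change of all features to -0.26 and raised the share called to 39.9%. All 5 clusters then passed, with Tpi1 higher at 0.36 and Slc2a1, Hk2, Pkm and Aldoa lower at -0.62, -0.54, -0.40 and -0.29. The 5' Gapdh set, at 0.22, then missed the threshold (limma adjusted p = 0.1146). The part of hybridization in these values was not tested.

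**Figure D2:**
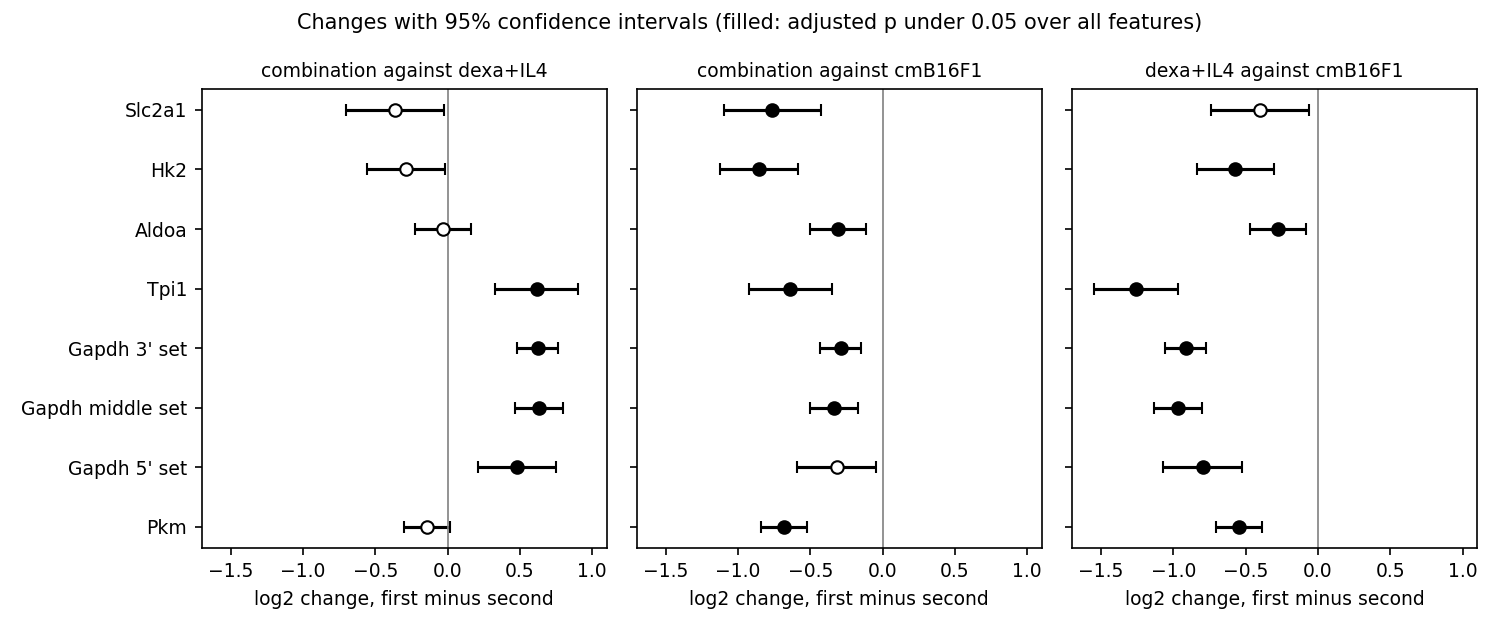
Log2 changes of the 5 clusters and 3 Gapdh sets in 3 comparisons, first group minus second, with 95% confidence intervals from limma. The intervals are not adjusted over all features. Filled points have an adjusted p under 0.05 over all features. In the first panel Tpi1 and Gapdh lie to the right of 0 and the other 4 clusters to the left, while in the other panels all points lie to the left.

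The second comparison set the combination against cmB16F1, and so asked what dexamethasone and IL-4 changed beside conditioned medium. All 5 clusters fell, against 14.1% of features called in either direction and 7.58% called lower. Among features of the members' own levels the share called in either direction was higher, at 17.7% for means of 7 to 9, 43.6% for 11 to 13 and 41.9% for 13 or more. Hk2 was 1.81-fold, Slc2a1 1.70-fold, Pkm 1.61-fold, Tpi1 1.56-fold and Aldoa 1.24-fold lower in the combination. The 3' and middle sets of Gapdh were 1.22-fold and 1.26-fold lower. The median change of the clusters was -0.68, against 0.013 over all features, and the median size over all features was 0.058.

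The change of Hk2 was -0.86 with an SE of 0.120 (limma, Benjamini-Hochberg adjusted p = 8.973e-04) and that of Slc2a1 was -0.76 (SE 0.151, adjusted p = 0.00698). That of Pkm was -0.68 (SE 0.0714, limma adjusted p = 1.333e-04) and that of Tpi1 was -0.64 (SE 0.129, adjusted p = 0.007795). No array of these 4 clusters overlapped between the groups, nor did those of Aldoa. The combination lay wholly below cmB16F1 in 13.0% of all features. The Aldoa change of -0.31 (limma adjusted p = 0.03857) was close to the threshold. Its call was lost in the fit of only the arrays of the groups compared, and without dexa+IL4 replicate 1 or 3, combination replicate 1 or 3 or cmB16F1 replicate 2 or 3. Without these arrays its change ran from -0.34 to -0.22 and the limma adjusted p from 0.05388 to 0.1213.

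For the 3', middle and 5' sets of Gapdh the changes were -0.29, -0.34 and -0.32 (limma adjusted p = 0.01239, 0.01256 and 0.1247). Leaving out cmB16F1 replicate 2 lost the call of the 3' set, at -0.26 (limma adjusted p = 0.05244). The 5' set passed with the replicate number as a block (limma adjusted p = 0.008689), with scaling to the hybridization controls, where its change was -0.53, and without combination replicate 1, where it was -0.44. That scaling moved the median change of all features to -0.20 and the median of the 5 clusters to -0.90.

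Arrays of equal number deviated together in these groups over all clusters. Slc2a1 on array 1 lay 0.32 below its mean in cmB16F1 and 0.24 below in the combination, and on array 3 it lay 0.26 and 0.28 above. For Slc2a1 the difference between equal-numbered arrays was -0.68, -0.86 and -0.75, with an SD of 0.0895, while the SD over arrays was 0.30 in cmB16F1 and 0.26 in the combination. For Aldoa the differences were -0.36, -0.25 and -0.31, with an SD of 0.0549 that was also below those of cmB16F1, 0.10, and the combination, 0.15. For Hk2, Tpi1 and Pkm the SD of the differences was not below that of both groups. Differences of unpaired arrays are expected to have a larger SD than either group. These SDs therefore do not mark the 3 clusters as unpaired. The differences of Hk2 were -0.72, -0.91 and -0.94 (SD 0.116, against 0.21 in cmB16F1 and 0.107 in the combination). Those of Tpi1 were -0.70, -0.76 and -0.46 (SD 0.158, against 0.276 and 0.154), and those of Pkm -0.64, -0.62 and -0.79 (SD 0.0936, against 0.0751 and 0.108). Every one of these differences was below 0, which the lack of overlap given above already fixes.

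**Figure D3:**
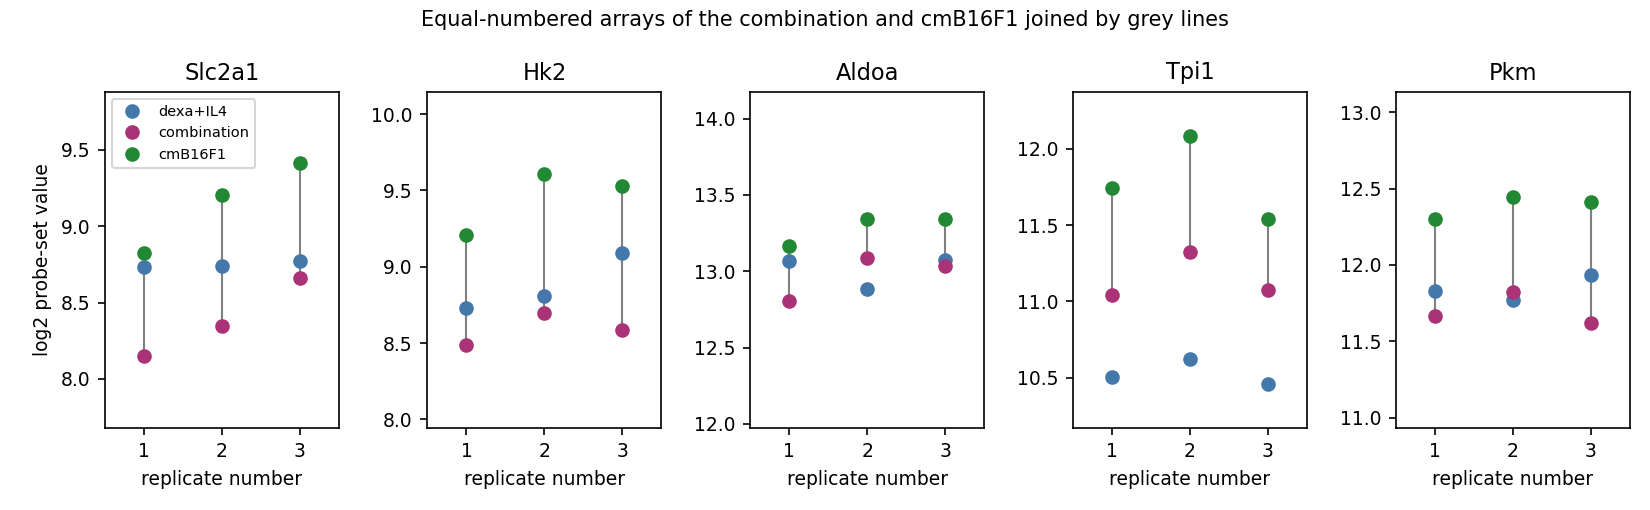
Log2 probe-set values of the 5 clusters by replicate number, with the combination and cmB16F1 arrays of equal number joined by a line; every panel spans the same height. The cmB16F1 array is the upper end of every line, and for Slc2a1 both ends are lowest at number 1 and highest at number 3.

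The third comparison set dexa+IL4 against cmB16F1, which differ in every agent. Tpi1 was 2.39-fold lower in dexa+IL4, and the 3', middle and 5' sets of Gapdh were 1.89-fold, 1.96-fold and 1.74-fold lower. Hk2 was 1.48-fold, Pkm 1.46-fold and Aldoa 1.21-fold lower, while Slc2a1, at -0.40, missed the threshold. Of the 5 clusters 4 were called, all lower in dexa+IL4, against 25.0% of all features called in either direction and 12.3% called lower. By level, 33% were called in either direction at means of 7 to 9, 55% at 11 to 13 and 58.1% at 13 or more. All 5 lay wholly below cmB16F1, as did 19.6% of all features. The median change of the clusters was -0.54, against 0.018 over all features.

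The change of Tpi1 was -1.26 with an SE of 0.129 (limma, Benjamini-Hochberg adjusted p = 7.608e-05), exceeded in size by 1.28% of features. Hk2 changed by -0.57 and Pkm by -0.54 (limma adjusted p = 0.006364 and 3.824e-04). The Gapdh changes were -0.92, -0.97 and -0.80 at the 3', middle and 5' sets (limma adjusted p = 6.122e-06, 1.069e-05 and 9.375e-04). Each of these calls held under all 19 alternatives. For Slc2a1 the 95% confidence interval ran from -0.74 to -0.063 (limma adjusted p = 0.08193). It passed with array weights, and also without cmB16F1 replicate 1 (-0.56, adjusted p = 0.01397) or combination replicate 3 (-0.40, adjusted p = 0.04716). Aldoa changed by -0.28 (limma adjusted p = 0.04082). Its call was lost when arrays were scaled to the hybridization controls (-0.23) or normalized by quantiles (-0.17). It was also lost without any 1 of dexa+IL4 replicates 1, 2 and 3 or cmB16F1 replicates 2 and 3, with changes from -0.31 to -0.21 and limma adjusted p from 0.06323 to 0.1405.

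The place of the combination between the single groups differed by gene. The 3 comparisons share arrays, so these values are not independent of those above. From the mean of dexa+IL4 to that of cmB16F1, the combination stood at 49.1% of the way for Tpi1 and at 68.1%, 65.2% and 60% for the 3', middle and 5' sets of Gapdh. For Aldoa, Pkm, Hk2 and Slc2a1 it stood on the far side of dexa+IL4, at -11.9%, -25.8%, -50.1% and -91%. The last of these rests on a difference between the single groups that missed the threshold. These places depend on single arrays. That of Slc2a1 ran from -136% without cmB16F1 replicate 3 to -61.3% without combination replicate 1, and that of Hk2 from -72.8% without dexa+IL4 replicate 1 to -26.2% without its replicate 3. That of Pkm ran from -37.1% without combination replicate 2 to -16.4% without dexa+IL4 replicate 3. Aldoa crossed to the near side, at 19.1%, without combination replicate 1, and was at -43.9% without dexa+IL4 replicate 2. Tpi1 kept between 42.1% and 55.7%, and the Gapdh sets between 45.4% and 75.2%. Tpi1 passed the test in all 3 comparisons with dexa+IL4 lowest and cmB16F1 highest, an order called for 1.18% of all features. The 3' and middle Gapdh sets did so too. Slc2a1 and Hk2 on the combination arrays lay below all 6 other arrays, as did 4.77% of all features. Neither passed the test against dexa+IL4, so in this model neither was among the 1.88% called lower than both single groups.

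Likeness was measured as the root mean square distance between profiles over the 9 arrays, each centred on its own mean. Hk2 and Pkm were closest among the 5 clusters, at 0.122, and Slc2a1 and Tpi1 farthest apart, at 0.507. Tpi1 was closer to the 3' Gapdh set, at 0.202, than to any other cluster, of which the closest was Pkm, at 0.377. The profile averaged over the 5 clusters was nearest to Pkm, at 0.0756, and farthest among the 5 from Tpi1, at 0.339. Each of the 5 is part of that average, which brings it closer. Outside these genes, the nearest features to the average were clusters Mm.358339, at 0.0765, and Mm.255203, at 0.0793, which the table does not name. Both were dim, with group means between 6.83 and 7.91, against bacterial poly-A controls of 6.09 to 7.00. Distances are on the log2 scale, so a feature of low level and one of high level can lie close together.

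The level of a gene can limit how large a change is seen. The highest value of any array was 14.23. Among the members the group means of Aldoa, at 12.98 to 13.29, lay closest to it. Those of Gapdh, at 12.23 to 13.14 (3' set), came next, and those of Pkm, at 11.70 to 12.39, lay lower. By the mean over all arrays Gapdh belongs with Pkm and Tpi1 to the range from 11 to 13. The 31 features with a mean of 13 or more had median differences of 0.235, 0.153 and 0.22 on the log2 scale in the 3 comparisons in the order given. The 289 features between 11 and 13 had medians of 0.251, 0.223 and 0.253. The largest difference was 0.614, 0.507 and 0.873 in the first set and 2.28, 7.51 and 7.05 in the second, but a largest value also grows with the number of features. Compression of the Aldoa, Gapdh and Pkm differences was not tested, so the order of the members by fold is given as measured. Slc2a1 and Hk2 lay well above the highest bacterial poly-A control, 7.00, and below the other members.

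**Figure D4:**
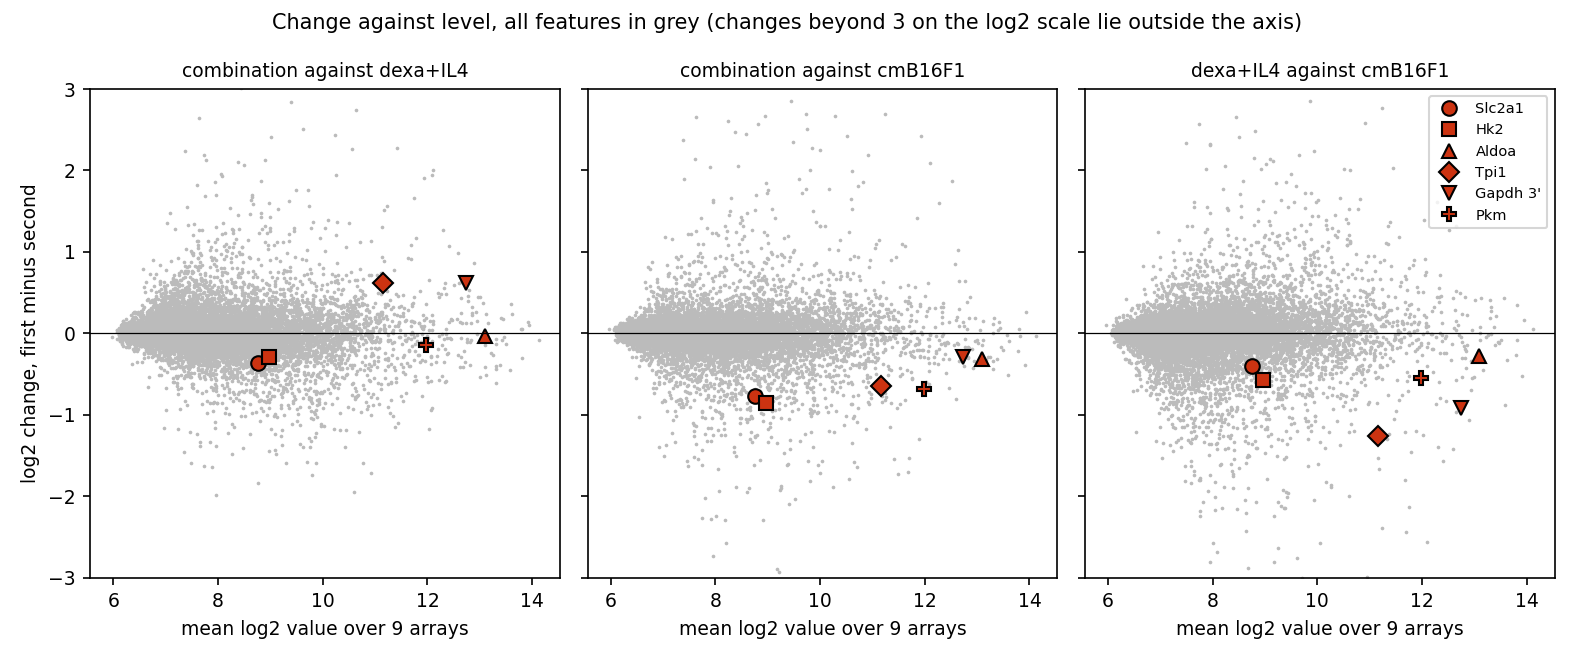
Log2 change against mean log2 value over 9 arrays for all 17829 features (grey) and 5 glycolysis clusters with the 3' Gapdh set (red symbols), in 3 comparisons. The grey cloud thins to the right, where Aldoa lies at a change of -0.033, -0.31 and -0.28 in the order of the panels.

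RNA quality was read from Gapdh itself, as its 3' minus its 5' value. That difference was 0.30 ± 0.081 for dexa+IL4, 0.45 ± 0.19 for the combination and 0.42 ± 0.20 for cmB16F1 (SD, n = 3). It ran from 0.26 to 0.40, from 0.24 to 0.59 and from 0.19 to 0.57 in these groups. The overlap came from replicate 1 of the combination and of cmB16F1. Replicates 2 and 3 of both lay above every dexa+IL4 array, and the part of RNA quality in the changes was not tested. The arrays measure RNA of whole cultures, so fewer cells of a type and less RNA per cell cannot be told apart, and cell-type markers were not looked up because the table does not name its clusters.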

How the data were processed

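The 9 samples were measured on 1-colour Affymetrix arrays, 1 array each, from biotinylated cRNA, per the labels' protocols. The authors deposited log2 values per probe set, taken to be normalized from the nearly equal medians of the arrays, 7.19 to 7.25. Normalizing by quantiles still moved the Aldoa difference between the combination and dexa+IL4 from -0.033 to -0.19. The scale was read from the values. Sources used here do not give the background correction, the normalization or the chip definition. The number of arrays limits the precision.

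All 9 arrays entered 1 limma 3.58.1 model in R 4.3.3, with group as its only term and a mean-variance trend (6 residual and 3.85 prior degrees of freedom). Benjamini-Hochberg adjustment ran over 17829 features (17810 clusters and 19 mouse control sets), and an adjusted p under 0.05 was called. Where a cluster had a plus and a minus set, the one with the higher mean was used, and no filter on dim features was applied. The members, gene lists and tests were chosen with earlier results of these data known. Every member found is named. Further pathway genes and cell-type markers had been listed by symbol and were not looked up, since the table names no cluster.

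Equal-numbered arrays of the combination and cmB16F1 deviated together across clusters (correlations 0.617, 0.565 and 0.662), which was taken as pairing. The model without a block gives the values in the text, so it leaves this pairing out. With the replicate number as a block, all 5 clusters stayed called in the combination against cmB16F1. Their limma adjusted p then ran from 1.482e-04 for Hk2 to 0.02492 for Aldoa. On simulated data for 17829 features, 86% of changes of 0.5 and 44% of changes of 0.25 were recovered in the comparison of the combination with dexa+IL4. The noise was simulated as independent, which may be too favourable. Changes were given to randomly drawn clusters of any level, 50 of each size, far fewer than the 17.9% called in the data. The rates need not hold for the genes described here.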

Additional observations from a re-analysis of the deposited data

How the results depend on the processing

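Each result was recomputed under 19 alternatives: 9 that leave out 1 array each and 10 others. Of 24 gene results, that is 8 features in 3 comparisons, 14 kept their direction and their side of the threshold under all 19. The 5 clusters called in the combination against cmB16F1 became 4 or 5 with 1 array left out, and the 4 called in dexa+IL4 against cmB16F1 became 3 to 5. In the combination against dexa+IL4 the 1 called cluster became 5 with scaling to the hybridization controls, 3 with the replicate number as a block and 1 to 2 with 1 array left out. For that comparison the labels alone do not pair the arrays, and correlations of equal-numbered arrays were 0.224, -0.0672 and 0.116. The block there passed Slc2a1 and Hk2 (limma adjusted p = 0.02578 and 0.03502), which were then called lower than both single groups. In dexa+IL4 against cmB16F1, where they were 0.236, -0.0234 and 0.167, it passed Slc2a1 (0.01355). The block changed no call but these and that of the 5' Gapdh set given above. The median change of the clusters became -0.40 against dexa+IL4 and -0.90 against cmB16F1 with scaling to the hybridization controls, by the construction of that scaling, which moved all features. The sign of Aldoa in the combination against dexa+IL4 turned without combination replicate 1, at 0.053, within a range from -0.094 to 0.053 over the arrays left out, and the cause was not tested. Features near the highest value of the arrays may show changes that are too small.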
